A study of Mus musculus with 2 samples.

Results

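The Mir302-367 cluster is a run of 5 microRNA (miRNA) hairpins on mouse chromosome 3: Mir302b, Mir302c, Mir302a, Mir302d and Mir367, in the order in which they are transcribed. They were chosen by symbol and are 5 of the 1973 miRNA genes in the tables. The tissue was the facial prominences, the swellings of the embryonic head that fuse into the face, taken from B6NCrl mice at embryonic day 10.5 and sequenced as small RNA with inserts under 30 nt. The labels give 1 group of 2 libraries, each a pool of healthy male and female embryos (51 embryos in replicate 2 and 69 in replicate 1), and they name no treatment, genotype or second stage. The values below therefore describe the hairpins against each other, against their relatives and between the 2 pools. Pooling hides the spread between single embryos, and in such bulk tissue fewer cells of a type and less RNA per cell cannot be told apart.

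The hairpins of this cluster are cut from a shared primary transcript, and each can give a miRNA from its 5p and its 3p arm. A miRNA finds its messenger RNA targets mainly through its seed, bases 2 to 8 of the mature sequence. The mir-302 miRNAs are best known from embryonic stem cells and the early embryo, where they promote cell cycling and self-renewal, and they share their seed with miRNAs of the Mir290 cluster. Mir367 carries a different seed, that of the Mir25 and Mir92 family. The let-7 family, in contrast, accumulates as cells differentiate.

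All 5 hairpins and 9 of their mature arms were found in the RefSeq table (GRCm38.p6, the same build as mm10). The arms are printed 5′ to 3′ with the seed in capitals, because the seed decides with which other miRNAs each member is grouped below. The 3p arms of Mir302b and Mir302d have the same seed, AAGUGCU. The arm that was not found is the 3p arm of Mir302a, so its seed is not given here. The Mir302a hairpin does hold the letters AAGUGCU. The 3p arm of Mir302c is listed 1 base shorter at its start, so its bases 2 to 8 are shifted by 1 base, to AGUGCUU.
miR-302b-3p: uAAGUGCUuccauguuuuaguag
miR-302c-3p: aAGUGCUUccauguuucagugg
miR-302d-3p: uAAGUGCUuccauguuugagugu
miR-367-3p: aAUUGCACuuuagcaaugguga
The 5p arms of Mir302b, Mir302c and Mir302d share the seed CUUUAAC, which among the 1738 mature sequences in the table was found in these 3 alone. The 5p arm of Mir302a differs from it within the seed.
miR-302a-5p: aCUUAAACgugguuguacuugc
miR-302b-5p: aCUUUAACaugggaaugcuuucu
miR-302c-5p: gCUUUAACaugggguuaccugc
miR-302d-5p: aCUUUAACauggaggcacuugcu
miR-367-5p: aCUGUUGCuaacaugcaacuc

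The cluster spans 580 nt (chr3:127545228-127545807, plus strand, mm10), with gaps of 43 to 65 nt between hairpins. It lies inside Larp7, a gene for an RNA-binding protein, but on the strand opposite to it. Larp7 is on the minus strand (chr3:127536714-127553349), and the cluster sits in the intron between exons 8 and 9 of its 13 exons, with Mir367 ending 18 nt from exon 8. No other annotated gene covers the cluster on its own strand. At each of the 5 hairpins the opposite strand, that of Larp7, had 0 counts in both libraries. The limit that such a count leaves is 0.853 CPM for replicate 2 and 1.05 CPM for replicate 1. With inserts under 30 nt it covers small RNA only and does not bear on the level of Larp7 transcripts.

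Levels are given as CPM, the count on the gene's strand divided by the sum of such counts in the library and multiplied by 1000000. The totals behind them were 3517226 counts in replicate 2 and 2853511 in replicate 1, and the count of a hairpin sums its 2 arms, so neither arm has a level of its own here. Mir302a was the highest member, with 7914 CPM in replicate 2 and 5356 CPM in replicate 1 (mean 6635 ± 1809 CPM, SD, n = 2). Mir302d followed with 6023 CPM in replicate 2 and 4118 CPM in replicate 1 (5071 ± 1347 CPM). Mir302b had 5053 CPM in replicate 2 and 3140 CPM in replicate 1 (4097 ± 1352 CPM). These 3 hairpins held 94.6% of the cluster's counts in replicate 2 and 94.7% in replicate 1. Mir302c, which lies between Mir302b and Mir302a, had 1088 CPM in replicate 2 and 699 CPM in replicate 1 (893 ± 274 CPM). Mir367, the last hairpin, had few counts, 21 counts in replicate 2 and 10 in replicate 1, or 5.97 and 3.50 CPM (4.74 ± 1.74 CPM). Its exact Clopper-Pearson 95% intervals were 3.70 to 9.13 CPM in replicate 2 and 1.68 to 6.44 CPM in replicate 1, above the limit that a count of 0 allows. Such intervals cover counting error only: without molecular identifiers, PCR copies of a molecule are counted as separate reads. Every member was higher in replicate 2 than in replicate 1, and apart from Mir367 the intervals of the libraries did not overlap.

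**Figure D1:**
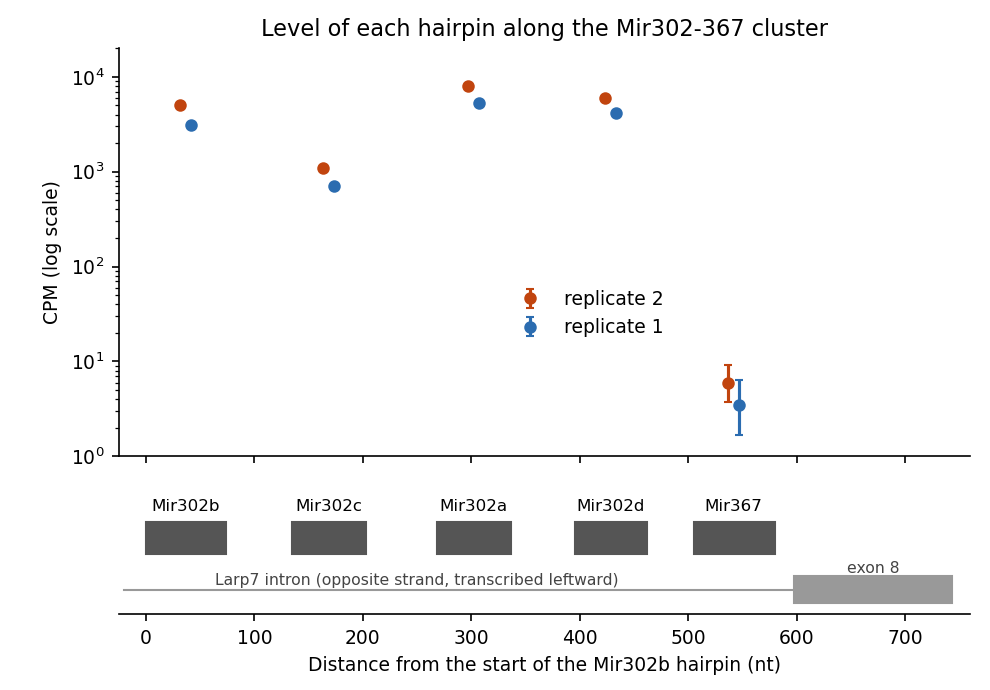
CPM of each hairpin (log scale) against its distance in nt from the start of the Mir302b hairpin, with replicate 2 in red and replicate 1 in blue, offset for clarity, and bars for the exact 95% counting interval; below, the hairpins and the Larp7 intron with exon 8 are drawn to scale. Levels do not fall steadily along the transcript: Mir302c (893 CPM) lies below both of its neighbours, and Mir367 (4.74 CPM) lies far below Mir302d (5071 CPM).

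Added together, the 5 hairpins took 2.01% of all counts in replicate 2 and 1.33% in replicate 1 (16701 ± 4784 CPM). Of the 1973 genes, 11 had a higher mean than this sum. By mean level Mir302a ranked 37th, Mir302d 43rd, Mir302b 53rd, Mir302c 108th and Mir367 355th of 1973. All 5 were among the 376 genes with at least 10 counts in each library. Mir302a stood between Mir296 (7473 CPM in replicate 2 and 6636 CPM in replicate 1) and Mir1983 (7191 and 5570 CPM), and was above both in replicate 2 and below both in replicate 1. Mir302d stood between Mir181c and Mir96, Mir302b between Mir92b and Mir363, Mir302c between Mir300 and Mir449a, and Mir367 between Mir1969 and Mir6951. Each of these gaps in mean CPM was smaller than the member's own SD, so these neighbours in the order are not separated from the members.

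Within the cluster the order Mir302a, Mir302d, Mir302b, Mir302c, Mir367 was the same in both libraries. The lower steps were wide in both libraries. Mir302b had 4.65 times the counts of Mir302c in replicate 2 (95% counting interval 4.49 to 4.81) and 4.49 times in replicate 1 (4.28 to 4.71). Mir302c had 182 times the counts of Mir367 in replicate 2 (119 to 295) and 200 times in replicate 1 (108 to 417). The steps among the top hairpins were small, though within each library the intervals lay above 1. Mir302a had 1.31 times the counts of Mir302d in replicate 2 (1.29 to 1.34) and 1.30 times in replicate 1 (1.27 to 1.33). Mir302d had 1.19 times those of Mir302b in replicate 2 (1.17 to 1.22) and 1.31 times in replicate 1 (1.28 to 1.35). These 2 upper steps were smaller than the differences of the same hairpins between the libraries, in which all members were higher in replicate 2, and the lower steps were larger. A difference shared by the members cancels in a ratio taken within a library, so this comparison is a strict one.

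Mir302d and Mir367 are separated by 43 nt and differ the most of any adjacent pair, with 1009 times as many counts at Mir302d in replicate 2 (660 to 1630) and 1175 times in replicate 1 (639 to 2451). Their hairpins are shown with the annotated mature arms in capitals.
Mir302d (chr3:127545624-127545689, plus strand): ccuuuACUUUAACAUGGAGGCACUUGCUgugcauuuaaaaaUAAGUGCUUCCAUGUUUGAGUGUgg
Mir367 (chr3:127545733-127545807, plus strand): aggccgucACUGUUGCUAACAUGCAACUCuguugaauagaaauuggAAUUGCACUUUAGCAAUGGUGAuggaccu
They are 53.1% identical in a global alignment, against 66.7% to 76.5% among the 4 Mir302 hairpins. Predicted folding energies from RNAfold ran from -23.3 kcal/mol for Mir302b to -34.5 kcal/mol for Mir367, so the hairpin with the fewest counts had the most stable predicted fold and the order of energies was not the order of levels.

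The proportions of the members were close in the 2 pools. Mir302a made up 39.4% of the cluster's counts in replicate 2 (exact 95% interval 39.0% to 39.8%) and 40.2% in replicate 1 (39.7% to 40.7%), Mir302d 30.0% (29.7% to 30.3%) and 30.9% (30.5% to 31.4%), and Mir302b 25.2% (24.8% to 25.5%) and 23.6% (23.15% to 24.01%), in the same order of libraries. Mir302c held 5.41% in replicate 2 and 5.25% in replicate 1, and Mir367 0.0297% and 0.0263%. These shares do not depend on the library total. The largest difference was that of Mir302b, 1.58 percentage points higher in replicate 2. For Mir302b and Mir302d the intervals of the libraries did not overlap, and for Mir302a, Mir302c and Mir367 they did.

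**Figure D2:**
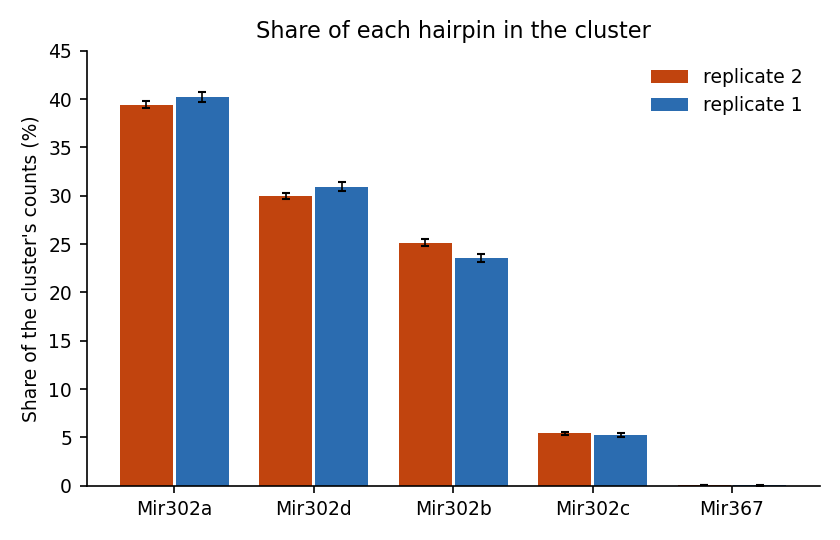
Share of the cluster's counts (%) held by each hairpin in replicate 2 (red) and replicate 1 (blue), with exact 95% counting intervals. The bars of a hairpin differ by at most 1.58 percentage points between the libraries, and Mir367, at 0.0297% and 0.0263%, is too low to be seen at this scale.

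The split between Mir302a and Mir302b carries a limit of its own. These hairpins share a stretch of 20 bases, the first 18 bases of miR-302b-3p occur in both, and multimapping reads stand in a line of their own, outside the gene counts. A read of the whole arm maps to Mir302b alone among the 2202 hairpins searched, as did the whole of each of the 9 arms. Together Mir302a and Mir302b held 64.6% of the cluster's counts in replicate 2 and 63.8% in replicate 1. Mir302c, Mir302d and Mir367 share no stretch of 20 bases with any other hairpin.

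All members were higher in replicate 2, by similar ratios. The sum was 20084 CPM in replicate 2, against 13318 CPM in replicate 1, a log2 ratio of 0.59 (95% counting interval 0.57 to 0.61) or 1.51-fold. The members' log2 ratios of replicate 2 over replicate 1 were 0.56 for Mir302a, 0.55 for Mir302d, 0.69 for Mir302b, 0.64 for Mir302c and 0.69 for Mir367. Their median was 0.64, while the median over all 449 tested genes was 0.01, with quartiles of -0.23 and 0.23. By an exact two-sided binomial test with Benjamini-Hochberg adjustment over those genes, 4 of the 5 hairpins were higher in replicate 2, with an adjusted p of 1.95e-58 for Mir302c and smaller values for Mir302a, Mir302b and Mir302d. That test called 40.3% of all tested genes, 20% higher and 20.3% lower in replicate 2. Mir367 did not pass it (adjusted p = 0.367, exact binomial), and its counts allow a log2 ratio from -0.38 to 2.02.

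That test compares the reads of the 2 libraries, and at the depth of the higher genes it calls most differences: of the 104 genes whose mean reached 1000 CPM it called 91.3%. edgeR's likelihood ratio test was also run, with a biological coefficient of variation of 0.178, and called 0 of the 5 hairpins. That variation comes from the same 2 libraries, 1 against 1, so it includes the differences under test. Its adjusted p was 0.995 for each, with unadjusted values from 0.0717 for Mir302b to 0.258 for Mir367. It called 6 of the 449 genes (1.34%; 0.668% higher and 0.668% lower in replicate 2), and 24 had an unadjusted p under 0.05. With 1 library on each side the smallest p that an exact permutation test allows is 1, so neither result shows whether the hairpins differ between such pools beyond their usual spread. Among tested genes, 35 had a higher log2 ratio than Mir302b, 39 than Mir302c, 45 than Mir302a and 48 than Mir302d. At a level of 1000 CPM and a log2 ratio of 0.5, bounds chosen after the values were seen, 5 of the 104 genes were at or above the ratio and 6 were at or below its negative. The 5 were Mir219a-2, Mir92b, Mir302b, Mir302a and Mir302d.

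**Figure D3:**
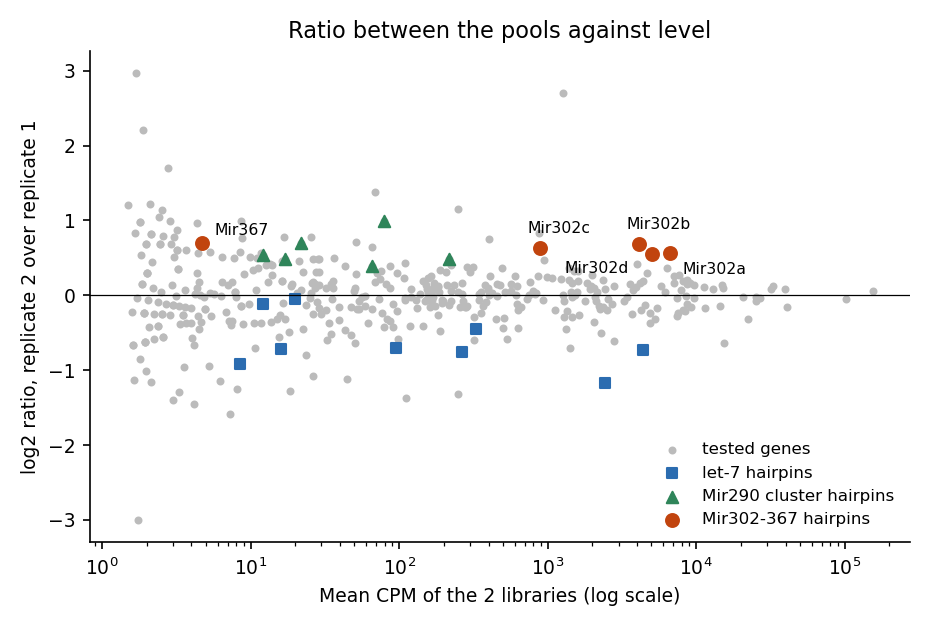
Log2 ratio of replicate 2 over replicate 1 against mean CPM (log scale) for the 449 tested genes, with the Mir302-367 hairpins in red, the Mir290 cluster in green and the let-7 hairpins in blue. The 5 cluster members lie between 0.55 and 0.69, above 0 like the detected Mir290 hairpins, and the detected let-7 hairpins lie below 0.

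The markers of mesenchyme and epithelium were present in both pools. The mesenchymal list (Mir199a-1, Mir214 and others) was at 27041 CPM in replicate 2 and 30706 CPM in replicate 1. For the epithelial list (Mir200 family, Mir205, Mir203) the values were 23965 and 28691 CPM. By the binomial test 4 of 7 mesenchymal and 6 of 7 epithelial genes were lower in replicate 2, as were 20.3% of all tested genes. Calls depend on level, however. Of the 104 genes with a mean of 1000 CPM or more, among them Mir214, Mir205 and Mir203, the test called 95, of which 48 were higher in replicate 2. The neural list had 630 CPM in replicate 2, against 723 CPM in replicate 1, the erythroid list 205 and 420 CPM, the muscle list 123 and 72.5 CPM, and Mir126a of endothelium had 34369 and 31642 CPM. Members of a list did not all go one way: by the binomial test 1 muscle gene was higher and 1 lower in replicate 2, while 0 erythroid genes were higher and 1 was lower. That test called 2 neural genes higher and 2 lower. Only 2 of the 6 matched neural genes were detected, however, and their log2 ratios were -0.52 and -0.20. The 2 called higher therefore fell short of the count set for detection in at least 1 library. Of the 6 matched neural genes 5 share a stretch of 20 bases with another hairpin. A mixed direction of the neural list is thus not shown. The list of miRNAs of the posterior body (Mir10 and Mir196 genes) was at 609 CPM in replicate 2, against 360 CPM in replicate 1, with 3 of 4 tested genes higher and 0 lower by the binomial test, which called 20% of all genes higher. edgeR's test called 1 gene each of the neural, erythroid and muscle lists and 0 of the mesenchymal, epithelial, endothelial and posterior lists. The part of any of these in the cluster's shift was not tested.

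Grouped by the seeds of the listed mature sequences, Mir302b and Mir302d gave most of the counts of their family in both libraries. This grouping leaves out Mir302a, whose 3p arm is not listed although its hairpin holds the letters AAGUGCU. Mir302a had 7914 CPM in replicate 2 and 5356 CPM in replicate 1, more than Mir302d or Mir302b. The RefSeq table has 5 mature miRNAs with the seed AAGUGCU, of which 3 lie in the Mir290 cluster, shown here for comparison.
miR-291a-3p: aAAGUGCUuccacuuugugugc
miR-294-3p: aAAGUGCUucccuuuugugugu
miR-295-3p: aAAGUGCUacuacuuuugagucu
The 5 hairpins had 11228 CPM in replicate 2, against 7342 CPM in replicate 1, of which Mir302b and Mir302d gave 98.6% in replicate 2 and 98.9% in replicate 1. This share rests on the rule for the family. With Mir302a and Mir302c added it was 99.2% in replicate 2 and 99.4% in replicate 1. If every hairpin that holds the letters AAGUGCU at any position counts, the family has 23 measured hairpins, 6 of them from the Mir17 list below, and the 4 Mir302 hairpins gave 8.78% in replicate 2 and 6.07% in replicate 1. Outside the cluster, Mir294 had 105 CPM in replicate 2 and 52.9 CPM in replicate 1, Mir291a 27.0 and 16.5 CPM, and Mir295 19.9 and 14.0 CPM.

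The whole Mir290 cluster, which is active in the earliest embryo and in stem cells, lay far below the Mir302-367 cluster. Its 7 matched hairpins of 9 listed together had 496 CPM in replicate 2, against 333 CPM in replicate 1, so that the Mir302-367 cluster had 40.5 times this level in replicate 2 and 40.0 times in replicate 1. The highest were Mir293 with 218 ± 50.7 CPM, Mir294 with 79.2 ± 37.2 CPM and Mir292 with 65.5 ± 12.8 CPM (SD, n = 2). The 6 detected hairpins had log2 ratios from 0.40 to 0.99 with a median of 0.52, and 4 of them were higher in replicate 2 by the binomial test, as were 20% of all genes. Of the 7 matched hairpins 4 share a stretch of 20 bases with another hairpin, so their counts are uncertain.

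Mir367 was a minor part of its own seed family. Its seed AUUGCAC is carried by Mir25, Mir32, Mir363, Mir92b and both copies of the mir-92a gene, most of them in clusters of the Mir17-92 type.
miR-25-3p: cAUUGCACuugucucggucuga
miR-92a-3p: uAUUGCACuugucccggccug
miR-92b-3p: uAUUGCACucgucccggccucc
miR-363-3p: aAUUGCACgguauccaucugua
This family together had 22678 CPM in replicate 2, against 18279 CPM in replicate 1, of which Mir367 gave 0.0263% and 0.0192%. The highest were Mir92-1 with 9697 ± 680 CPM, Mir92b with 4161 ± 1415 CPM and Mir363 with 4002 ± 819 CPM. Mir92-1 and Mir92-2 have the same listed miR-92a-3p and share a stretch of 20 bases. Reads mapped to several places were not counted, so the counts of Mir92-1 and Mir92-2, and the family sum, are uncertain. The 6 relatives had a median log2 ratio of 0.28, with 4 higher and 1 lower in replicate 2 by the binomial test. That test called 40.3% of all tested genes and 91.3% of those at 1000 CPM or more, a level that Mir92-2 (950 CPM) and Mir32 (377 CPM) did not reach. A count of 5 called among 6 is therefore not shown to be particular to this family. Mir92b, at 0.71, had the ratio nearest to that of Mir302b among them.

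**Figure D4:**
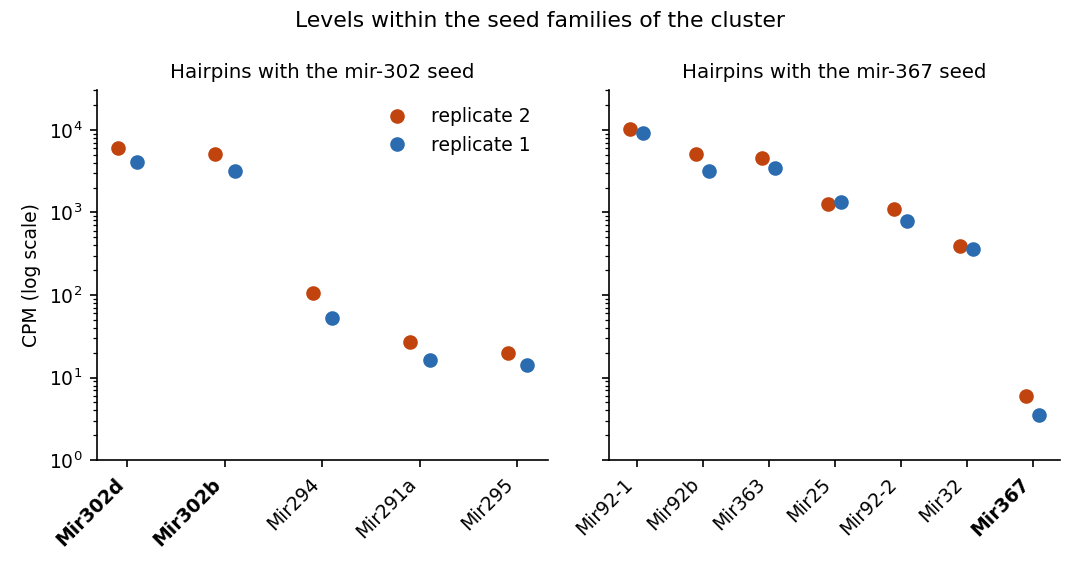
CPM (log scale) of the hairpins with the mir-302 seed (left) and with the mir-367 seed (right) in replicate 2 (red) and replicate 1 (blue), with cluster members in bold. Mir302d and Mir302b lie at 3140 CPM or above while Mir294, Mir291a and Mir295 lie at or below 105 CPM, and Mir367 (4.74 CPM) is the lowest of its family.

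The miRNAs of the Mir17 family, which promote proliferation, hold a seed shifted by 1 base from that of mir-302.
miR-17-5p: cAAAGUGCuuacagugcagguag
Their 6 listed hairpins together had 190703 CPM in replicate 2, against 188696 CPM in replicate 1. The Mir302-367 cluster had 0.105 times that level in replicate 2 and 0.0706 times in replicate 1. Mir17 led with 101576 ± 2425 CPM, ahead of Mir20a with 39804 ± 1645 CPM and Mir93 with 20569 ± 222 CPM. Their median log2 ratio was 0.11, with 4 higher and 2 lower in replicate 2 by the binomial test. All had a mean above 1000 CPM, the range in which 91.3% of genes were called, and Mir93 was among the lower ones with a log2 ratio of -0.02.

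The summed let-7 family was lower in replicate 2. Its 10 matched hairpins of 12 listed together had 5411 CPM in replicate 2, against 9768 CPM in replicate 1. The Mir302-367 cluster was 3.71 times the let-7 sum in replicate 2 and 1.36 times in replicate 1. That sum leaves out Mirlet7e, Mirlet7f-1 and reads mapped to several places, so it can be too low and these ratios too high. Mirlet7g had 4410 ± 1540 CPM, Mirlet7i 2432 ± 1328 CPM and Mirlet7d 330 ± 72.5 CPM. By the binomial test 0 let-7 hairpins were higher and 7 of the 10 lower in replicate 2, where 20.3% of all genes were lower. The median log2 ratio of the 9 detected ones was -0.72. edgeR's test called 0 of the let-7 hairpins, and 0 of the Mir290, Mir17 and Mir25 and Mir92 lists. Mirlet7e and Mirlet7f-1 were not matched, and 5 of the 10 share a stretch of 20 bases with another hairpin.

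Of 206 genes outside the cluster whose mean reached 100 CPM, the 5 whose log2 ratio lay nearest to the cluster's 0.59 were Mir293 (0.48), Mir92b (0.71), Mir92-2 (0.47), Mir219a-1 (0.75) and Mir217 (0.43). Likeness here is the difference between log2 ratios over 2 libraries, so it rests on a single ratio per gene. Mir293 had 254 CPM in replicate 2 and 182 CPM in replicate 1, and Mir92b had 5162 and 3160 CPM, close to Mir302b in both libraries. Mir92-2 shares a stretch of 20 bases with Mir92-1, and Mir219a-1 with other Mir219 hairpins, so the counts of these 2 are uncertain.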

How the data were processed

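The deposited tables, 1 per library, give the authors' unnormalised read counts for each miRNA gene. Accompanying text files name the build (mm10) and the gene models (GENCODE M4). For the aligner, the version and parameters were not given in the sources used here. Each table has 4 summary lines, kept apart from all totals, and a count on either strand, on the gene's strand and on the opposite strand. In all 1973 genes the first was the sum of the other 2. Replicate 2 held 8643947 reads (24.1% unmapped, 25.9% mapped to several places and not counted, 9.32% outside the genes) and replicate 1 6828248 reads (21.6%, 27.6% and 9.01%). The count on the gene's strand (97.6% of gene reads in each) was used.

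Symbols and positions came from GENCODE M21 (same build) by identifier without version (1894 of 1973 matched), and mature sequences and hairpins from RefSeq. CPM, ratios (pseudocount 0.5 CPM) and exact 95% Clopper-Pearson intervals were computed from the counts. Genes with at least 10 counts in all were tested by an exact binomial test against the library totals with Benjamini-Hochberg adjustment at 0.05 (SciPy 1.17.1). edgeR 4.0.16 gave the likelihood ratio test, with a common dispersion from an intercept-only fit, and the TMM factors. DESeq2 1.42.0 gave other size factors. Folding energies came from RNAfold 2.7.2. Detected means 10 or more counts in both libraries. Neighbours in the order were called separated where both libraries gave the same order with a log2 gap above the larger ratio between libraries. Seed families hold the hairpins with a mature sequence listed with that seed. The tests were tried on simulated data. For the binomial test these had no variation between pools. For edgeR's test they had a dispersion set below the 0.0317 estimated from the data. They therefore do not bear on the spread between real pools.

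The members, lists and tests were chosen with earlier results of these data known. Genes named are the members, the 3 highest of each companion list, the 5 nearest to the cluster in ratio, the neighbours of each member in level, the gene overlapping the cluster, members of the seed families, and examples of the marker lists. With 1 group no contrast between conditions was possible. The labels number the pools as biological replicates with separate sample records, so differences measure the spread between these 2 pools. Each pool gave 1 library, so differences from library preparation or sequencing cannot be told apart from differences between the pools.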

Additional observations from a re-analysis of the deposited data

How the results depend on the processing

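Of 159 recomputed values 141 kept their direction and their side of the threshold or stayed within the spread between libraries, and none changed direction. This count does not measure robustness, because some of these values could not have moved. A value from 1 library alone lies within that spread by definition. Counting both strands leaves the shares as they were, and a pseudocount does not enter the binomial test. With all reads as the denominator in place of gene counts the cluster sum was 6869 CPM and the log2 ratio of the sum 0.55. With TMM library sizes that ratio was 0.61. Leaving out 1 library gave a cluster sum of 13318 to 20084 CPM, a Mir302a share of 39.4% to 40.2%, a share of the mir-302 seed family of 98.6% to 98.9% and of the mir-367 family of 0.0192% to 0.0263%. A ratio between the pools cannot be had from 1 library. With edgeR's likelihood ratio test, whose dispersion comes from the same 2 libraries, members called fell to 0, against 4 by the exact binomial test, and genes called to 6, against 181. Without hairpins that share a stretch of 20 bases the cluster held 98.2% of the mir-302 seed family and 0.0474% of the mir-367 family. By rules added after seeing the data, it held 99.3% of the mir-302 seed family with Mir302a and Mir302c added, and 7.43% with every hairpin that holds the seed's letters. Across the alternatives the log2 ratio of Mir302b stayed between 0.65 and 0.71, that of Mir302a between 0.52 and 0.58, and that of Mir367 between 0.37 and 0.77. No paired analysis was possible because the labels give 1 group. The depth limits Mir367 alone among the members, with 21 counts in replicate 2 and 10 in replicate 1.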
